A study of Mus musculus with 6 samples.

Results

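The genes of the proteasome were described in C2C12, a line of mouse myoblasts, which are cells that fuse into skeletal muscle fibres. Genes whose symbol begins with *Psma*, *Psmb*, *Psmc*, *Psmd*, *Psme* or *Psmf* and goes on with a number were taken, which gave 44 of the 14548 genes in the files. Another 6 annotated symbols of this form (*Psma8*, *Psmb11* and 4 pseudogenes) were not analysed here. RNA sequencing had been done on 3 WT libraries and on 3 libraries of MSTN-KO cells, in which CRISPR/Cas9 had been directed at exon 3 of the myostatin gene. The MSTN-KO libraries come from 1 cell line, C11. Since C11 also stands as the strain of the WT samples in the labels, the genotype label set the groups. All 6 libraries are labelled as myoblasts of skeletal muscle, and no treatment, time or differentiation medium is given. The labels do not say whether the 3 libraries of a group came from separate cultures, and p-values therefore measure only the spread between these libraries.

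The 26S proteasome degrades proteins that carry ubiquitin. Its 20S core is a barrel of stacked rings, in which the alpha subunits form the gated outer rings and the beta subunits the inner rings with the cutting sites. The 19S particle binds to the end of the barrel, where the ATPases and scaffold proteins of its base unfold the substrate and its lid removes the ubiquitin. In cells exposed to interferon the 3 cutting subunits *Psmb6*, *Psmb7* and *Psmb5* can be replaced by *Psmb9*, *Psmb10* and *Psmb8*, which makes the immunoproteasome, a source of peptides for presentation on MHC class I. Degradation by the proteasome is a main route of protein loss in wasting muscle, and myostatin is a secreted inhibitor of muscle growth.

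Expression was given as FPKM, a measure of fragments scaled to gene length and library size, so that levels can be compared between genes per length. Summed over all genes, FPKM lay at 723705 to 764524 in WT and at 856314 to 999579 in MSTN-KO. The number of fragments behind them is unknown, so no counting error is given. *Mstn* itself was between 0 and 0.0399 FPKM in WT and between 0.0269 and 0.0586 FPKM in MSTN-KO, too low to check the labels. Of the 4 myoblast markers tested 3 fell in MSTN-KO (*Myod1*, *Des* and *Cdkn1c*, by limma adjusted p). So did 5 of 5 genes of differentiating muscle, beside 8.96% of all tested genes. *Cdkn1c* and *Myh3* reached 1 FPKM, the level needed for testing, only in WT libraries, so the filter itself favoured their place in these counts. The genes of differentiating muscle summed to between 194 and 696 FPKM in WT, lowest in WT replicate 3, and to between 28.1 and 50.3 FPKM in MSTN-KO. In such bulk RNA fewer cells of a type and less RNA per cell cannot be told apart, and the part of these markers in the differences below was not tested. Of the other cell types, leukocyte markers *Cd68* and *Laptm5* summed to at most 2.39 FPKM in any library, endothelial markers to at most 0.112 FPKM and epithelial markers to at most 0.492 FPKM.

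Genes of the core and the 19S particle were expressed at high and ordered levels in both groups. Over the 31 genes of the alpha ring, constitutive beta ring, base and lid, the WT mean ran from 59.4 FPKM for *Psmd12* to 697 FPKM for *Psmb3*, an 11.7-fold range, although the subunits of a ring are present in equal numbers. The order of the genes by level was nearly the same in MSTN-KO, with a Spearman's rho of 0.952 across the 31 genes, which are not independent replicates. Expression of the 3 immunoproteasome subunits was far below that of the subunits they replace. The activator genes *Psme1*, *Psme2* and *Psme3* lay between 63.8 and 122 FPKM, and *Psme4*, the inhibitor *Psmf1* and the 3 assembly factors of the 19S base below 50 FPKM. *Psmc3ip*, which meets the naming rule, encodes a factor of meiotic recombination and is no proteasome subunit. It had 10.7 ± 2.42 FPKM (SD, n = 3) in WT and 12.1 ± 3.16 FPKM in MSTN-KO.

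**Figure D1:**
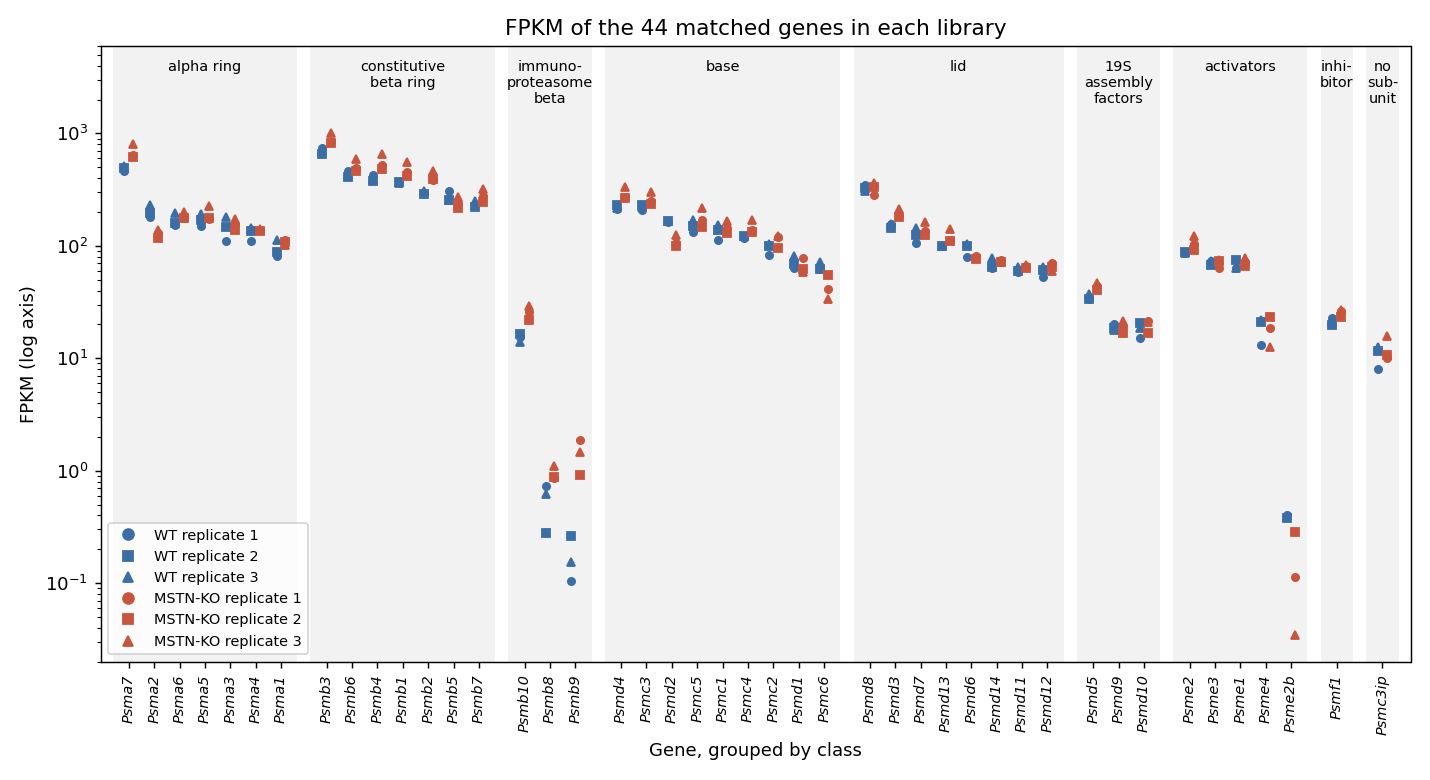
FPKM of the 44 genes (y axis, log scale) in each of the 6 libraries, with genes grouped by class and ordered by WT mean within it; blue symbols are WT libraries and red symbols MSTN-KO libraries. Core, base and lid genes lie between 33.6 and 1018 FPKM, while *Psmb8*, *Psmb9* and *Psme2b* lie near or below 1 FPKM.

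Between MSTN-KO and WT most proteasome genes were not called, and the called genes moved in both directions. By limma on log2(FPKM + 1), with p-values adjusted over all 10837 genes tested and a threshold of 0.05, 5 of the 43 tested genes rose (11.6%, beside 8.78% of all tested genes). These were *Psmb9*, *Psmb10*, *Psma7*, *Psmb2* and *Psmb4*. *Psma2*, *Psmc6* and *Psmd2* fell, 3 of 43 (6.98%, beside 8.96% of all tested genes). *Psme2b*, a near-identical copy of *Psme2*, was below 1 FPKM in every library and was not tested. *Psmb8* and *Psmb9* reached 1 FPKM only in MSTN-KO libraries, and without them 4 of 41 genes rose and 3 fell. Both shares of called genes were close to those of genes in general. *Psmb9*, *Psmb10*, *Psma2* and *Psmd2* were called with any 1 library left out. The number called higher was 2 without WT replicate 1, 2 or 3 or MSTN-KO replicate 1, 3 without MSTN-KO replicate 3 and 7 without MSTN-KO replicate 2. The number called lower was 3 without MSTN-KO replicate 2 and 2 without any other library. Scaling each library to a sum of 1000000 left *Psmb9* and *Psmb10* as the genes called higher and gave 6 called lower. Over all 10837 tested genes that scaling called 350 higher and 2367 lower, beside 952 and 971 without it. With 1 library left out, between 419 and 1175 of all tested genes were called higher and between 611 and 1233 lower.

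In their direction the genes leaned to one side, with positive log2 fold changes for 34 of 43 and negative ones for 9. After quantile normalization 28 were positive and 15 negative, and with libraries scaled to a sum of 1000000 the counts turned to 11 and 32. The median log2 fold change was 0.19, where the median over all tested genes was -0.00078. The 3 MSTN-KO libraries all lay above the 3 WT libraries for 16 of the 43 genes (37.2%, beside 19.3% of all tested genes), and all lay below them for 3 (6.98%, beside 18.1%). Without *Psmb8* and *Psmb9*, which passed the filter only through MSTN-KO libraries, these were 14 (34.1%) and 3 (7.32%) of 41 genes. The same lean was seen in strongly expressed genes as a whole. Among the 1952 tested genes with a mean of at least 50 FPKM, 73.4% had a positive log2 fold change and their median was 0.18. Of these genes 18.9% rose and 4.35% fell. Of the 34 proteasome genes above that level, 76.5% were positive, with a median of 0.18, and 3 rose and 3 fell. The same scaling moved the median of all genes to -0.26 and turned that of the proteasome genes to -0.10, which was still higher by 0.16. Of all FPKM in a library, the 44 genes together made up 0.868%, 0.912% and 0.909% in WT and 0.843%, 0.834% and 0.879% in MSTN-KO. The mean share differed by -0.0444 percentage points (MSTN-KO minus WT), with overlapping groups, although the FPKM of most of the genes was higher.

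Within a group the libraries stood in a common order for many of these genes. In MSTN-KO replicate 3, 34 of the 43 tested genes had their highest value among the MSTN-KO libraries, and in MSTN-KO replicate 2, 31 had their lowest. Over all tested genes the corresponding shares were 43.9% and 39.2%. Among the WT libraries, replicate 1 was lowest for 26 of the 43 genes and replicate 3 highest for 24, beside 31.0% and 34.6% of all tested genes. MSTN-KO replicate 3 also had the largest sum of FPKM and MSTN-KO replicate 2 the smallest of its group, and the part of this in the differences was not tested.

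**Figure D2:**
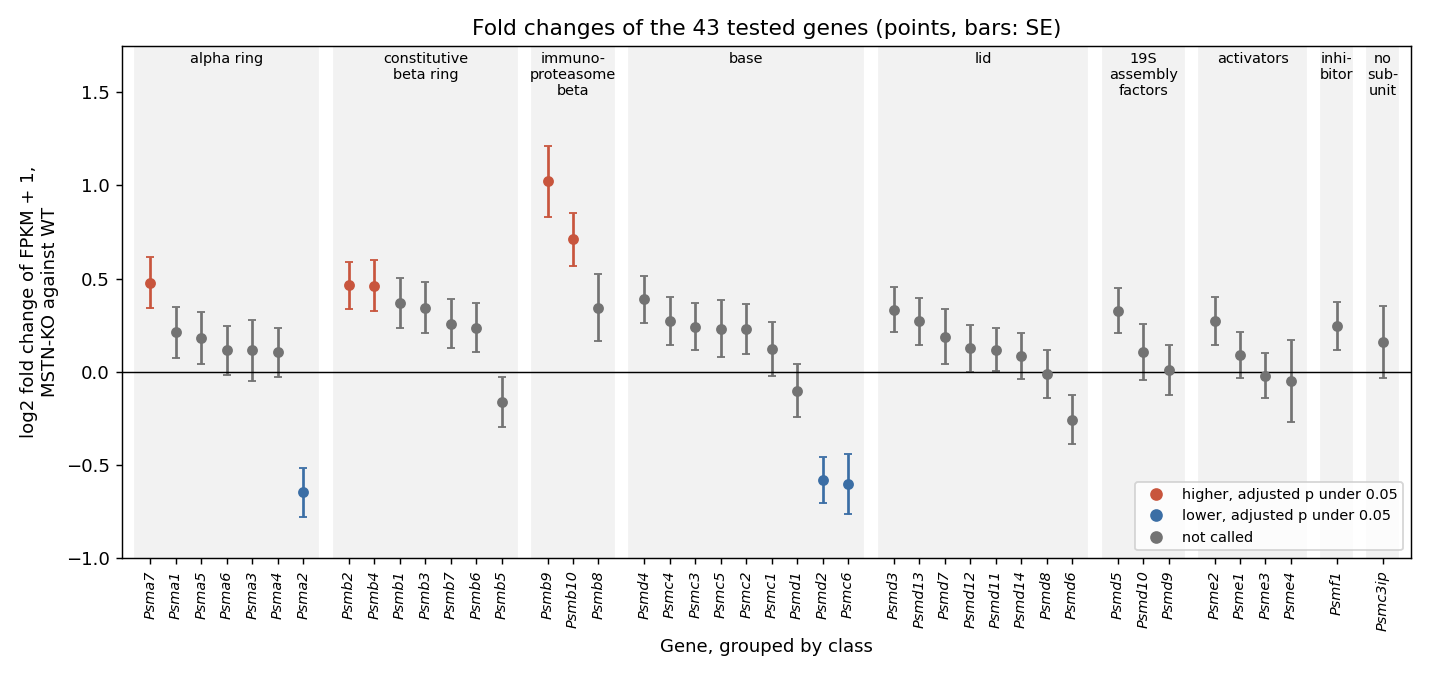
Log2 fold change of FPKM + 1 in MSTN-KO against WT (y axis) of the 43 tested genes, grouped by class, with bars for the standard error; red and blue points passed the adjusted p in the higher and lower direction. Most points lie between 0 and 0.4, and *Psma2*, *Psmd2* and *Psmc6* lie apart at -0.65 to -0.58.

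The alpha ring held both one of the risen and one of the fallen genes. *Psma7* had 461, 491 and 512 FPKM in WT and 637, 615 and 798 FPKM in MSTN-KO, so that the groups did not overlap. The difference was 0.48 ± 0.14 (log2, SE; limma adjusted p = 0.0288). The call was lost without any 1 library other than MSTN-KO replicate 2 (limma adjusted p = 0.0569 to 0.107). *Psma2* had 179.9, 198 and 229 FPKM in WT and 130.1, 117 and 138 FPKM in MSTN-KO, again without overlap. It fell by 0.65 on the log2 scale (SE 0.13, limma adjusted p = 0.00476), to 63.4% of the WT mean. The other 5 alpha genes, *Psma1*, *Psma3*, *Psma4*, *Psma5* and *Psma6*, had log2 fold changes between 0.10 and 0.21 with overlapping groups, and none was called. Both *Psma7* and *Psma2* encode subunits that every core particle needs, and their changes in RNA were opposite in sign.

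In the constitutive beta ring 6 of 7 genes had positive log2 fold changes, with a median of 0.34, and 2 rose. Of all tested genes 49.9% were positive and 8.78% rose. Of those with a mean of at least 50 FPKM, a level that all 7 exceed, 73.4% were positive and 18.9% rose. *Psmb2*, a beta subunit without a cutting site of its own, had 297, 292 and 306 FPKM in WT and 384, 390.0 and 466 FPKM in MSTN-KO. The difference was 0.46 ± 0.12 (log2, SE; limma adjusted p = 0.0220). *Psmb4*, likewise without a cutting site, had 427, 381 and 395 FPKM in WT and 527, 487 and 655 FPKM in MSTN-KO (log2 fold change 0.46 ± 0.14 SE, limma adjusted p = 0.0355). For both genes every MSTN-KO library was above every WT library. *Psmb2* lost its call without any of the WT libraries or MSTN-KO replicate 1 (limma adjusted p = 0.0513 to 0.109), and *Psmb4* without any library other than MSTN-KO replicate 2 (limma adjusted p = 0.0611 to 0.154). *Psmb1* and *Psmb3* were also without overlap, but with log2 fold changes of 0.37 and 0.34 they were not called (limma adjusted p = 0.0725 and 0.0966).

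The 3 cutting subunits of the constitutive core were not called. *Psmb5*, which carries the chymotrypsin-like activity, had 308, 254 and 257 FPKM in WT and 239, 218 and 273 FPKM in MSTN-KO (log2 fold change -0.16 ± 0.13 SE, limma adjusted p = 0.419). *Psmb6*, the caspase-like subunit, had 467, 413 and 427 FPKM in WT and 493, 461 and 594 FPKM in MSTN-KO (log2 fold change 0.24 ± 0.13 SE, limma adjusted p = 0.238). *Psmb7*, the trypsin-like subunit, had 229.7, 222 and 253 FPKM in WT and 276, 248 and 321 FPKM in MSTN-KO (log2 fold change 0.26 ± 0.13 SE, limma adjusted p = 0.194). In all 3 the groups overlapped, and *Psmb5* was the only beta gene with a negative log2 fold change. When each library was corrected by a smooth over gene length and GC content, after quantile normalization and after scaling to a common sum *Psmb5* was called lower, at -0.32, -0.34 and -0.45 (limma adjusted p = 0.0266, 0.0351 and 0.00965). Summed over the 7 constitutive beta genes, expression was 2706 ± 126 FPKM (SD, n = 3) in WT and 3375 ± 448 FPKM in MSTN-KO, without overlap. Over the 7 alpha genes it was 1400.2 ± 161 and 1591 ± 164 FPKM, with overlap. These sums are not scaled to the total FPKM, which was also higher in every MSTN-KO library (856314 to 999579, beside 723705 to 764524 in WT). With libraries scaled to a common sum the median log2 fold change of the constitutive beta genes was 0.057. The part of the library totals in the summed values was not tested.

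The immunoproteasome subunits *Psmb9* and *Psmb10* had the highest log2 fold changes of the 43 tested genes, from low levels, while *Psmb8* was not called. *Psmb9* (chromosome 17, 34181987 to 34187764 of GRCm38) had 0.105, 0.263 and 0.154 FPKM in WT and 1.87, 0.919 and 1.46 FPKM in MSTN-KO. The lowest MSTN-KO library was above the highest WT library, and the MSTN-KO mean was 813% of the WT mean. The difference was 1.02 ± 0.19 (log2, SE; limma adjusted p = 0.00298), and it understates the ratio of means because 1 FPKM was added before taking logarithms. *Psmb10* (chromosome 8, 105935735 to 105938444) had 15.4, 16.3 and 13.8 FPKM in WT and 25.7, 21.9 and 29.1 FPKM in MSTN-KO, without overlap. The mean was 169% of WT and the log2 fold change 0.71 (SE 0.14, limma adjusted p = 0.00447). *Psmb8* (chromosome 17, 34197721 to 34201454) had 0.728, 0.280 and 0.618 FPKM in WT and 0.856, 0.885 and 1.09 FPKM in MSTN-KO (log2 fold change 0.34 ± 0.18 SE, limma adjusted p = 0.202). Although its groups did not overlap, WT replicate 2 alone was far below the others, and the difference was not called.

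Each immunoproteasome subunit was also set against the subunit it replaces within the same library, which no scaling of whole libraries can alter. *Psmb9* was 0.0407% ± 0.0210 (SD, n = 3) of *Psmb6* in WT and 0.274% ± 0.0930 in MSTN-KO. *Psmb8* was 0.196% ± 0.0741 of *Psmb5* in WT and 0.388% ± 0.0255 in MSTN-KO. Both *Psmb9* and *Psmb8* were below 1 FPKM in every WT library. The MSTN-KO mean of *Psmb5* was 89.2% of its WT mean, which also enters the ratio. For *Psmb10* over *Psmb7* the values were 6.51% ± 0.953 and 9.08% ± 0.229. In all 3 pairs the groups did not overlap (exact two-sided permutation, p = 0.1 in each case, which is the least that 6 libraries allow). The immunoproteasome subunits therefore stayed minor in both groups, at no more than 9.32% of their partner in any library.

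**Figure D3:**
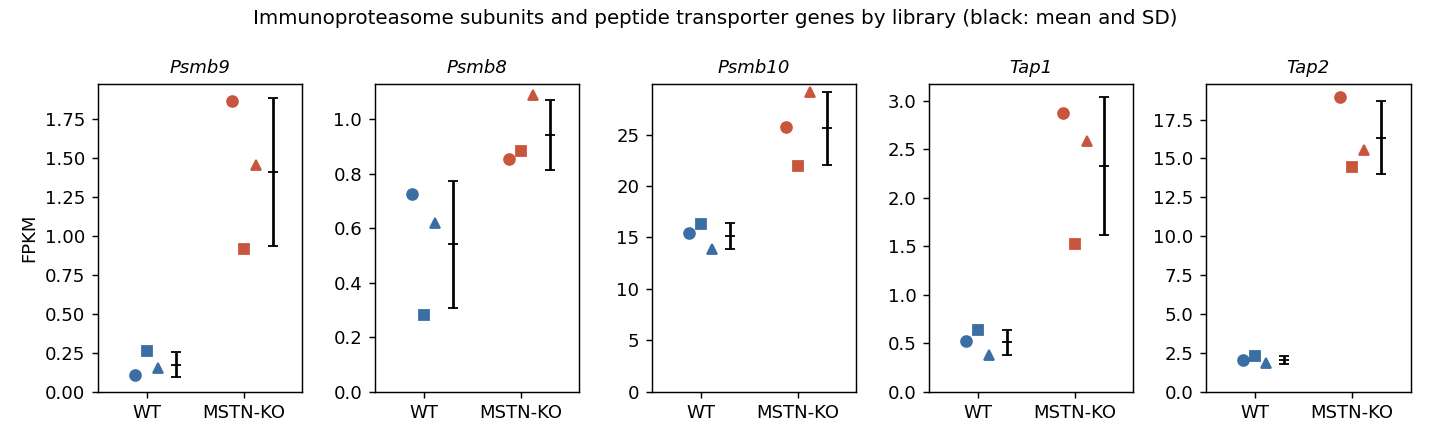
FPKM (y axis, linear, with its own scale in each panel) of *Psmb9*, *Psmb8*, *Psmb10*, *Tap1* and *Tap2* in the 6 libraries, with the mean and SD of each group in black. The 3 MSTN-KO libraries are above the 3 WT libraries in every panel, with a gap of 14.5 against 2.30 FPKM for *Tap2* and of 0.856 against 0.728 FPKM for *Psmb8*.

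*Psmb9* and *Psmb8* lie with the peptide transporter genes *Tap1* and *Tap2* in 34.3 kb of the MHC region, and *Psmb9* and *Tap1* are read in opposite directions from annotated starts 211 bases apart. *Tap1* had 0.526, 0.632 and 0.374 FPKM in WT and 2.88, 1.52 and 2.59 FPKM in MSTN-KO (log2 fold change 1.12 ± 0.19 SE, limma adjusted p = 0.00185). Like *Psmb8* and *Psmb9*, it reached 1 FPKM only in MSTN-KO libraries. *Tap2* had 2.05, 2.30 and 1.81 FPKM in WT and 18.96, 14.5 and 15.6 FPKM in MSTN-KO (log2 fold change 2.50 ± 0.15 SE, limma adjusted p = 2.82e-07). Of the 4 genes of the cluster, *Psmb8* alone was not called. The annotated first parts of *Psmb9* and *Tap1* overlap, and without a stated use of strand in the counting their reads cannot be fully told apart.

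The 250 bases before the RefSeq start sites of *Psmb9* and *Psmb10* are shown because these immunoproteasome genes were called higher under every processing in which they were tested. They lie at chr17:34187331-34187580 and chr8:105938393-105938642 of GRCm38.p6, both on the minus strand, and the capitals mark a CCAAT box on the opposite strand. For both genes the RefSeq start lies inside the longer GENCODE gene, and the window of *Psmb9* reaches into the annotated start of *Tap1*.
Psmb9: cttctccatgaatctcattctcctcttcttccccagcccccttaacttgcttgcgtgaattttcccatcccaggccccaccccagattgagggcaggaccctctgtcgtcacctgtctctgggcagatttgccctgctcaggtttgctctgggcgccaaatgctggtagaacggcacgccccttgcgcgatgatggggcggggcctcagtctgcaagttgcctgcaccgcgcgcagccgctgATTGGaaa
Psmb10: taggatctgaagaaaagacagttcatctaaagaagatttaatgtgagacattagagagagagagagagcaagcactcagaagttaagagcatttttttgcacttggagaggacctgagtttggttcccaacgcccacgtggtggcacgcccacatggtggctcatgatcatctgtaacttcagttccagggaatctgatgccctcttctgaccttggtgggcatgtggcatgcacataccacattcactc
No match to the interferon-stimulated response element (TTTC, any 2 bases and TTTC again, on both strands) was present in the windows of *Psmb8*, *Psmb9* or *Psmb10*. Matches stood in the windows of 3 of the 38 proteasome genes with a RefSeq window (*Psmb3*, *Psmd4* and *Psmd9*) and in 2.98% of all 32851 windows of that length. None of the 3 genes was called.

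The base of the 19S particle held the other 2 fallen genes beside genes with positive fold changes. *Psmc6*, one of its ATPases, had 61.7, 62.6 and 71.3 FPKM in WT and 41.7, 54.7 and 33.6 FPKM in MSTN-KO. It fell by 0.60 on the log2 scale (SE 0.16, limma adjusted p = 0.0222), with an SD of 5.32 FPKM among the WT libraries and of 10.7 FPKM among those of MSTN-KO. The call was lost without any library other than MSTN-KO replicate 2 (limma adjusted p = 0.0550 to 0.0863). *Psmd2*, a scaffold of the base to which ubiquitin receptors dock, had 164, 166 and 165 FPKM in WT and 106, 100.4 and 125 FPKM in MSTN-KO. It fell by 0.58 (SE 0.12, limma adjusted p = 0.00614), to 66.9% of the WT mean. *Psmd4*, a ubiquitin receptor, had the largest positive value of the base at 0.39, without overlap between groups, and just missed the threshold (limma adjusted p = 0.0514). The other ATPases, *Psmc1* to *Psmc5*, lay between 0.12 and 0.27, and *Psmd1* at -0.10.

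None of the 8 lid genes was called. Their log2 fold changes lay between -0.26 for *Psmd6* and 0.33 for *Psmd3*, with a median of 0.12. *Psmd14*, which cleaves ubiquitin from the substrate, had 68.7 ± 8.11 FPKM (SD, n = 3) in WT and 72.6 ± 1.80 FPKM in MSTN-KO. Summed over the lid genes expression was 988 ± 29.3 and 1063 ± 81.0 FPKM. The 3 assembly factors of the base, *Psmd5*, *Psmd9* and *Psmd10*, were not called either, with 0.33 for *Psmd5* as the highest value.

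The activators replace the 19S particle at the end of the barrel. *Psme1* and *Psme2* form 1 ring and are induced by interferon together with the immunoproteasome, while *Psme3* and *Psme4* act in the nucleus. *Psme1* had 63.9, 74.6 and 63.8 FPKM in WT and 72.0, 65.8 and 77.4 FPKM in MSTN-KO (log2 fold change 0.09 ± 0.13 SE, limma adjusted p = 0.661). *Psme2* had 85.6, 88.3 and 86.6 FPKM in WT and 104, 92.4 and 122 FPKM in MSTN-KO (log2 fold change 0.27 ± 0.13 SE, limma adjusted p = 0.159). Among the 4 tested activators, *Psme2* was the one whose groups were apart. Reads of *Psme2* and its copy *Psme2b* may have been divided by the authors' counting, and *Psme2b* had 0.403, 0.381 and 0.398 FPKM in WT and 0.114, 0.287 and 0.0343 FPKM in MSTN-KO.

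The nuclear activators showed no called difference. *Psme3* had 73.9, 67.0 and 73.6 FPKM in WT and 63.8, 72.6 and 74.95 FPKM in MSTN-KO (log2 fold change -0.02 ± 0.12 SE, limma adjusted p = 0.916). *Psme4* had 13.1, 21.1 and 21.9 FPKM in WT and 18.7, 23.1 and 12.6 FPKM in MSTN-KO (log2 fold change -0.05 ± 0.22 SE, limma adjusted p = 0.900), with the largest standard error of the activators. The inhibitor *Psmf1* had 22.8, 19.7 and 21.3 FPKM in WT and 26.3, 23.1 and 26.8 FPKM in MSTN-KO (log2 fold change 0.25 ± 0.13 SE, limma adjusted p = 0.205). Its groups did not overlap. The ratio of *Psme1* plus *Psme2* to *Psme3* was 2.17 ± 0.231 (SD, n = 3) in WT and 2.53 ± 0.306 in MSTN-KO, with overlap (two-sided exact permutation test, p = 0.2).

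The 3 fallen genes shared a feature that the naming rule did not use, which was noticed after their values were seen. All other tested genes within 1 Mb of them had negative log2 fold changes too. Around *Psmd2* (chromosome 16, 20651652 to 20663414) these were 19 of 19 genes, 17 of them called lower, with a median of -0.71. Around *Psma2* (chromosome 13, 14613240 to 14674236) they were 8 of 8, with 6 called lower and a median of -0.72. Around *Psmc6* (chromosome 14, 45329788 to 45349705) they were 6 of 6, with 2 called lower and a median of -0.34, and 5 of 6 after the length and GC correction. Of all 9740 tested genes with at least 5 tested neighbours, 366 (3.76%) had neighbours with negative values throughout, and among 41 proteasome genes these 3 were the ones that did.

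The stretches of consecutive tested genes with negative log2 fold changes that held these 3 genes were long. The stretch with *Psmd2* ran over 81 genes and 10.3 Mb of chromosome 16, from *Snai2* to *Lpp*, with 65 genes called lower and a median of -0.69. It also held *Ufd1*, a partner of the segregase that hands ubiquitinated proteins to the proteasome. The stretch with *Psma2* had 18 genes in just under 5 Mb, 15 of them called lower, and that with *Psmc6* had 26 genes in 10.6 Mb, 11 of them called lower. *Psmg1*, which lies elsewhere on chromosome 16, rose, and the median of all 340 tested genes of that chromosome was -0.08. Medians were -0.34 for chromosome 13 and -0.29 for chromosome 14. *Psmb5*, *Psmd6* and *Psmd1*, which had 3 of the other negative values, lie on chromosomes 14 and 1, and the median of chromosome 1 was -0.25. Over the 7 proteasome genes on chromosomes 1, 13 and 14 the median log2 fold change was -0.16, with 0 called higher and 2 lower. Over the 36 on other chromosomes it was 0.23, with 5 called higher and 1 lower. Of all tested genes 8.78% were called higher and 8.96% lower. Chromosomes 1, 13 and 14 were set apart after the data were seen. The part of the genomic position in these values was not tested.

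**Figure D4:**
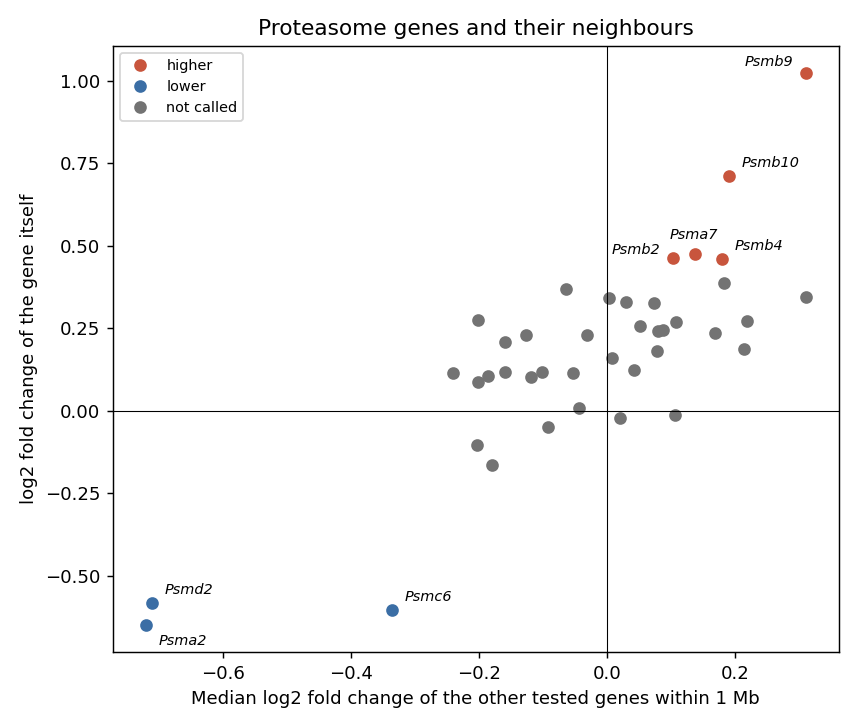
Log2 fold change of each of 41 proteasome genes with at least 5 tested neighbours (y axis) against the median log2 fold change of the other tested genes within 1 Mb (x axis); colours give the call of the gene. *Psma2*, *Psmd2* and *Psmc6* lie at the lower left, at neighbour medians of -0.72, -0.71 and -0.34, and the called rises lie at 0.10 to 0.31.

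Around the 5 risen genes the neighbours had values of both signs. Over all tested genes 49.9% were positive and 8.78% called higher. For *Psmb10* 38 of 46 neighbours had positive values and 7 were called higher, and for *Psmb9* 46 of 58 were positive and 20 called higher. The neighbours of *Psmb9* include *Tap1* and *Tap2*. For *Psma7*, *Psmb2* and *Psmb4* between 1 and 3 neighbours were called higher. Spearman's rho between a gene's log2 fold change and the median of its neighbours was 0.706 over the 41 proteasome genes and 0.366 over the 9740 genes. These are descriptions, since neighbours share windows and libraries.

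The 250 bases before the RefSeq start sites of the 3 fallen genes are shown, all on the plus strand of GRCm38.p6, since these genes lie on 3 chromosomes and fell by similar amounts. They lie at chr13:14612992-14613241 for *Psma2*, chr14:45329574-45329823 for *Psmc6* and chr16:20651402-20651651 for *Psmd2*. The capitals mark a CCAAT box in *Psma2* and, in *Psmc6*, a match on the opposite strand to the antioxidant response element (TGACNNNGC, searched on both strands), the motif through which *Nfe2l1* and *Nfe2l2* act.
Psma2: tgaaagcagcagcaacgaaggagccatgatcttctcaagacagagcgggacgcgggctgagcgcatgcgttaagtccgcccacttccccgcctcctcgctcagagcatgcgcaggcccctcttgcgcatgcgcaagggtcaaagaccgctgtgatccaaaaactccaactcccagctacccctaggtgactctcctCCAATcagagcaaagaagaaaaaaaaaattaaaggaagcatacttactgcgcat
Psmc6: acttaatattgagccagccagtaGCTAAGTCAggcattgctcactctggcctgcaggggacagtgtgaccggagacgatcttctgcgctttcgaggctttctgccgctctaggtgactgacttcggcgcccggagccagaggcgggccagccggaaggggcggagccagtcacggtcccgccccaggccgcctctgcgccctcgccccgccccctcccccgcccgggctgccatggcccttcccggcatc
Psmd2: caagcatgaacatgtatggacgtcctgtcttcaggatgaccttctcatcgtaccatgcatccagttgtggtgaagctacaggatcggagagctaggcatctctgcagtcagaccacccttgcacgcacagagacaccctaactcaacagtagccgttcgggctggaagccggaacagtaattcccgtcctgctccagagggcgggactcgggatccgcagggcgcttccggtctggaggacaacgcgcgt
No motif searched for was shared by the 3 windows, and that of *Psmd2* held none. The antioxidant response element was matched in the windows of 5 of 38 proteasome genes (*Psmb5*, *Psmb6*, *Psmc6*, *Psmd9* and *Psmd12*) and in 10.2% of all windows. A CCAAT box (CCAAT, both strands) was matched in 14 of the 38 and in 33.8% of all windows, among the called genes in *Psma2*, *Psma7* and *Psmb9*.

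The regulators of proteasome genes were not called in either direction. *Nfe2l1*, which raises proteasome genes when the proteasome is inhibited, had 79.0, 75.1 and 65.5 FPKM in WT and 71.9, 66.7 and 73.9 FPKM in MSTN-KO (log2 fold change -0.04, limma adjusted p = 0.831). *Nfe2l2*, the regulator of the oxidative stress response, had 31.8, 34.5 and 33.8 FPKM in WT and 34.5, 33.3 and 29.3 FPKM in MSTN-KO, also -0.04 (limma adjusted p = 0.831). In both the groups overlapped. Of the list of 7 regulators, with the small Maf proteins and the enzymes that process *Nfe2l1*, 0 were called, and the median was -0.04.

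Of 13 tested assembly chaperones and associated proteins 1 rose and 1 fell, beside 8.78% and 8.96% of all tested genes. *Psmg1*, a chaperone of the alpha ring, had 36.2, 34.1 and 38.2 FPKM in WT and 56.1, 45.9 and 66.4 FPKM in MSTN-KO (log2 fold change 0.61 ± 0.14 SE, limma adjusted p = 0.0120). *Zfand2a*, a stress-induced protein that binds the 19S particle, had 15.2, 14.5 and 12.8 FPKM in WT and 9.19, 8.71 and 11.3 FPKM in MSTN-KO (log2 fold change -0.50 ± 0.15 SE, limma adjusted p = 0.0303). Both were without overlap between groups. *Psmg1* lost its call without WT replicate 2 (limma adjusted p = 0.0585), and *Zfand2a* without WT replicate 1 or 2 or MSTN-KO replicate 1 or 2 (limma adjusted p = 0.0733 to 0.122). *Pomp*, the chaperone of beta ring assembly, had 225, 239 and 251 FPKM in WT and 292, 243 and 324 FPKM in MSTN-KO, with overlap, and was not called (log2 fold change 0.25, limma adjusted p = 0.203).

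Among the genes for ubiquitin activation and delivery to the proteasome, *Ufd1* and *Ubqln1* fell. *Ufd1* had 26.3, 30.4 and 34.1 FPKM in WT and 19.1, 14.6 and 19.4 FPKM in MSTN-KO (log2 fold change -0.74 ± 0.15 SE, limma adjusted p = 0.00488). The shuttle gene *Ubqln1*, on chromosome 13, had 47.2, 48.1 and 50.2 FPKM in WT and 34.7, 39.1 and 37.2 FPKM in MSTN-KO (log2 fold change -0.38 ± 0.12 SE, limma adjusted p = 0.0410). The groups of both genes were apart. *Ubqln1* lost its call without any library other than MSTN-KO replicate 2 (limma adjusted p = 0.0546 to 0.178), while *Ufd1* was called with any 1 library left out.

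Of 6 tested antigen processing genes 3 rose (beside 8.78% of all tested genes), *Tap1* and *Tap2* as above and *B2m*, the light chain of MHC class I. *Tap1* passed the filter only through its MSTN-KO libraries, so the filter itself favoured its place in this count. *B2m* had 346, 378 and 399 FPKM in WT and 468, 523 and 479.6 FPKM in MSTN-KO (log2 fold change 0.39 ± 0.12 SE, limma adjusted p = 0.0442). Its groups did not overlap, but the call was lost without any 1 library (limma adjusted p = 0.0558 to 0.154). *Irf1*, an interferon regulatory factor that acts on *Psmb8*, *Psmb9* and *Tap1*, had 13.7, 15.2 and 20.2 FPKM in WT and 18.4, 19.6 and 21.6 FPKM in MSTN-KO, with overlap, and was not called (log2 fold change 0.28, limma adjusted p = 0.235).

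**Figure D5:**
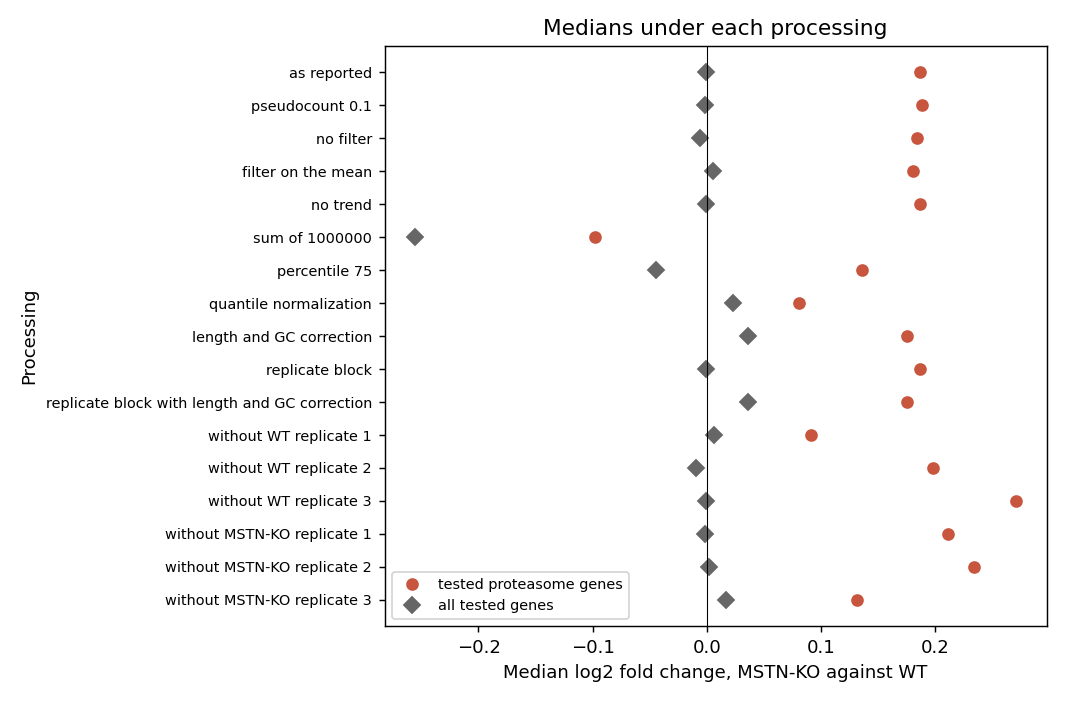
Median log2 fold change (x axis) of the tested proteasome genes (red circles) and of all tested genes (grey diamonds) under each processing (y axis). The median of the proteasome genes lies to the right of that of all genes in every row, and both move to the left, to -0.10 and -0.26, when libraries are scaled to a common sum.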

How the data were processed

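The authors extracted RNA with chloroform, sequenced it on an Illumina HiSeq system, and deposited FPKM values per gene, 1 library per file. There were 3 WT and 3 MSTN-KO libraries, and replicates were not pooled. The submitters' processing notes name Bowtie 0.12.2 and mm8. Depth is unknown, and 14445 of 14548 Ensembl identifiers were matched to symbols, positions, lengths and GC content of GENCODE M21 (GRCm38). Genes reaching 1 FPKM in any library were kept and log2(FPKM + 1) was modelled by group in limma (version 3.58.1, R 4.3.3; eBayes with trend, Benjamini-Hochberg over all genes), a step tested on simulated data. Ratios were tested by exact permutation. Promoter windows came from RefSeq (GRCm38.p6); protein sequences were not used here. Values are given per library for the cutting subunits, immunoproteasome subunits, activators, inhibitor and called genes, and for up to 3 called genes per pathway list. The genes, lists and tests were chosen with earlier results of these data known. Counting by strand is not given in the sources used here, and *Psma2*, *Psmb7*, *Psmb9*, *Psmc3*, *Psmc3ip*, *Psmd13* and *Psme1* overlap another tested gene. Alternatives covered pseudocount, filters, trend, scaling, quantile normalization, a length and GC smooth (mgcv 1.9.3), a replicate block and leaving out each library. Values of some pathway list genes are not reported here.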

Additional observations from a re-analysis of the deposited data

How the results depend on the processing

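The median log2 fold change of the proteasome genes was above that of all genes under all 16 alternatives. *Psma2* and *Psmd2* (lower) and *Psmb10* (higher) were called under all 16, and *Psmb9* under all 15 in which it was tested. *Psmb9* dropped out when genes were filtered on their mean FPKM, and it passed the filter as reported only through MSTN-KO libraries. *Psmb2* was called under 11, *Psmc6* under 10, *Psma7* under 8 and *Psmb4* under 7, so the last 4 calls depend on the processing; apart from the settings named here, the cause was not tested. FPKM give no fragment counts, so precision at the low levels of *Psmb8* and *Psmb9* is unknown.

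With no filter 3 proteasome genes rose, with the quantile normalization 3, with a common sum 2, and with the length and GC correction 10. Over all tested genes 720, 971, 350 and 1340 rose in that order, beside 952 as reported. With the replicate block 5 proteasome genes rose and 3 fell, as without it. With both block and correction 9 proteasome genes rose, beside 1186 of all tested genes. Same-numbered libraries had correlations of deviations of -0.0153, -0.128 and -0.142, so the numbers were not taken as pairing, and the block lost the calls of *B2m* (adjusted p = 0.0563) and *Ubqln1* (adjusted p = 0.0758). Leaving out 1 library gave 2 to 7 proteasome genes called higher and 2 to 3 lower: 7 higher without MSTN-KO replicate 2, 3 without MSTN-KO replicate 3 and 2 without any other. With a common sum 6 proteasome genes fell, beside 2367 of all 10837 tested genes. When the proteasome genes on chromosomes 1, 13 and 14 were left out, an alternative chosen after seeing the data, 1 fell.

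A common sum moved the median of the proteasome genes to -0.10, the alpha ring to -0.17, the constitutive beta ring to 0.057, the immunoproteasome to 0.44, the base to -0.055, the lid to -0.16, the assembly factors to -0.17 and the activators to -0.25, as the median of all genes moved to -0.26. Quantile normalization moved the constitutive beta ring to 0.12, the lid to 0.035 and the activators to -0.025. Leaving out 1 library gave medians of 0.09 to 0.27 for the proteasome genes, 0.048 to 0.27 for the alpha ring (highest without WT replicate 3), 0.24 to 0.40 for the constitutive beta ring, 0.079 to 0.31 for the base (lowest without MSTN-KO replicate 3), 0.057 to 0.18 for the lid and 0.027 to 0.11 for the activators (highest without WT replicate 2). Genes of the pathway lists called higher numbered 7 as reported, 4 without trend, 3 with a common sum, 4 after quantile normalization and 2 to 8 with 1 library left out. Those called lower numbered 3, then 6 with a common sum and 1 to 4 with 1 library left out. The share of summed FPKM differed by -0.0586 to -0.0352 percentage points (MSTN-KO minus WT) with 1 library left out.

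Of the proteasome genes, 34 were positive and 9 negative as reported, 11 and 32 with a common sum, and 28 and 15 after quantile normalization. Among the genes given by library, reversed signs concerned genes that were not called. With a common sum these were *Psmb6* (-0.049), *Psmb7* (-0.030), *Psme1* (-0.19), *Psme2* (-0.0095), *Psmf1* (-0.030) and *Pomp* (-0.031). *Psme1* was at -0.015 after quantile normalization and -0.012 after the length and GC correction, with and without the block, where *Psme4* was at 0.10. With 1 library left out *Psme3* ranged from -0.069 to 0.045, *Psme4* from -0.27 to 0.18, *Nfe2l1* from -0.12 to 0.012 and *Nfe2l2* from -0.091 to 0.024.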
